A study of Homo sapiens with 6 samples.

Results

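The genes of the Hippo pathway and of its effectors YAP and TAZ were followed through knockdown of CNOT3 in A549, a cell line from a human lung adenocarcinoma. They comprised the kinases LATS1 and LATS2, the coactivators YAP1 and WWTR1 (which encodes TAZ), the DNA-binding factors TEAD1 and TEAD4, and the targets CCN1, CCN2, ANKRD1 and AMOTL2. Every probe set that the platform annotation assigns to 1 of these 10 genes and to no other was taken, which gave 24 of the 54675 probe sets on the array, for 10 of the 19775 genes with such a probe set. The tested arrays came from 2 stable lines, shCNOT3-1 and shCNOT3-2, given doxycycline (DOX) at 1 ug/ml for 72 hours, and each had its own untreated culture beside it. The control line, shNTC, was grown in the same way with and without DOX. All 3 lines carried a lentiviral hairpin that DOX switches on, directed at a separate CNOT3 sequence in each shCNOT3 line and at no target in shNTC, so the untreated cultures held an uninduced hairpin. Each of the 6 cultures was read on 1 array, and the labels do not say whether a line was a clone or a pool.

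The Hippo pathway is a chain of kinases that responds to cell contact, cell shape and growth signals. At its end LATS1 and LATS2 phosphorylate YAP and TAZ, which are then held in the cytoplasm or degraded. When the kinases are inactive, YAP and TAZ enter the nucleus, bind TEAD factors and switch on genes such as CCN1 and CCN2. LATS2 and AMOTL2 restrain YAP and are themselves YAP targets, so the pathway contains negative feedback. CNOT3 belongs to the CCR4-NOT deadenylase, which removes poly(A) tails and so shortens the life of mRNAs.

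Values are probe set intensity on the linear scale of the deposited table. A change is the log2 difference between the array with DOX and the array without DOX of the same line, after adding 1 to each intensity. With DOX, CNOT3 stood at 36.1% of its untreated intensity in shCNOT3-1, at 20.5% in shCNOT3-2 and at 93.4% in shNTC. A second CNOT3 probe set above the filter gave 22.3%, 21.0% and 36.9% in the same order. By their mean, the epithelial markers EPCAM, KRT8, KRT18, KRT19 and CDH1 were all above the filter level of 61.4. The alveolar markers NKX2-1, SFTPC and SFTPB were above it too. So were 1 of 3 leukocyte (CD14), 1 of 2 endothelial (PECAM1) and 2 of 4 fibroblast markers (COL1A1 and DCN). CD14 read 144 to 265, PECAM1 107 to 277 and COL1A1 350 to 553, beside 132 to 372 for EPCAM. NKX2-1 read 14.6 to 134, SFTPC 40.7 to 221 and SFTPB 166 to 283. NKX2-1 and SFTPC were thus below the filter level on at least 1 array. PTPRC, CD3E, CDH5, COL3A1 and LUM were below the filter. The summed intensity of the 5 epithelial markers was 83291 to 95299 on the knockdown arrays and 83351 to 93166 on the other 4 arrays. The 3' to 5' ratio of ACTB, which tracks RNA integrity, was 1.42 with and 1.33 without DOX in shCNOT3-1, 1.45 and 1.36 in shCNOT3-2, and 1.47 and 1.58 in shNTC. The ACTB ratio moved with DOX in the opposite sense in the control line. The GAPDH ratio was 1.03 with and 0.98 without DOX in shCNOT3-1, 1.05 and 1.09 in shCNOT3-2, and 0.97 and 0.98 in shNTC. It thus rose with DOX in shCNOT3-1 only. The part of either ratio in the results below was not tested.

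On their brightest probe sets the kinases LATS1 and LATS2 read lowest on the knockdown arrays. LATS2 changed by only -0.02 with DOX in shCNOT3-1. LATS1, read from probe set 227772_at, had an intensity of 211 with and 663 without DOX in shCNOT3-1, 208 with and 803 without in shCNOT3-2, and 578 with and 649 without in shNTC. The knockdown arrays were the lowest of the 6, close to each other and well apart from the rest. That left 31.8% of the untreated intensity in shCNOT3-1, 25.9% in shCNOT3-2 and 89.1% in shNTC, a mean log2 change of -1.80 ± 0.21 (SD, n = 2 hairpins) against -0.17 in shNTC. Between the 3 untreated lines the highest LATS1 intensity was 1.24 times the lowest, a smaller ratio than the 3.15- and 3.87-fold decreases of the hairpins. Each array read RNA of a whole culture, so a lower level per cell and fewer cells with the transcript cannot be told apart.

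The LATS1 decrease rested on that probe set alone. The other 3 LATS1 probe sets lay under the filter, with intensities between 3.63 and 61.9 on all arrays. Their hairpin means were 0.16, 1.09 and -0.40, and the hairpins had opposite signs in the last 2 of these. For the first of them the sign in shCNOT3-2 also turned, to -0.04, after quantile normalization and to -0.02 after median centring.

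LATS2 had lower values in both shCNOT3 lines and higher ones in shNTC on each of its 4 probe sets, but the size differed between them. The brightest, 227013_at, read 868 with and 883 without DOX in shCNOT3-1, 745 and 1024 in shCNOT3-2, and 1499 and 1225 in shNTC. The change in shCNOT3-1 was close to 0 at -0.02 and became 0.01 after median centring of the arrays, whereas shCNOT3-2 gave -0.46. A second probe set of nearly the same brightness, 223380_s_at, gave larger decreases, with 882 and 1246 in shCNOT3-1, 494 and 1094 in shCNOT3-2, and 1324 and 1020 in shNTC. On both of these probe sets the knockdown arrays were the lowest of the 6 and the shNTC array with DOX the highest. The dimmer 230348_at gave -0.10 and -1.19 by hairpin and 1.42 in shNTC, and 223379_s_at, under the filter, gave -1.41 and -1.05 against 3.21. The untreated lines differed by 1.39-fold on the brightest probe set, about as much as shCNOT3-2 changed there.

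**Figure D1:**
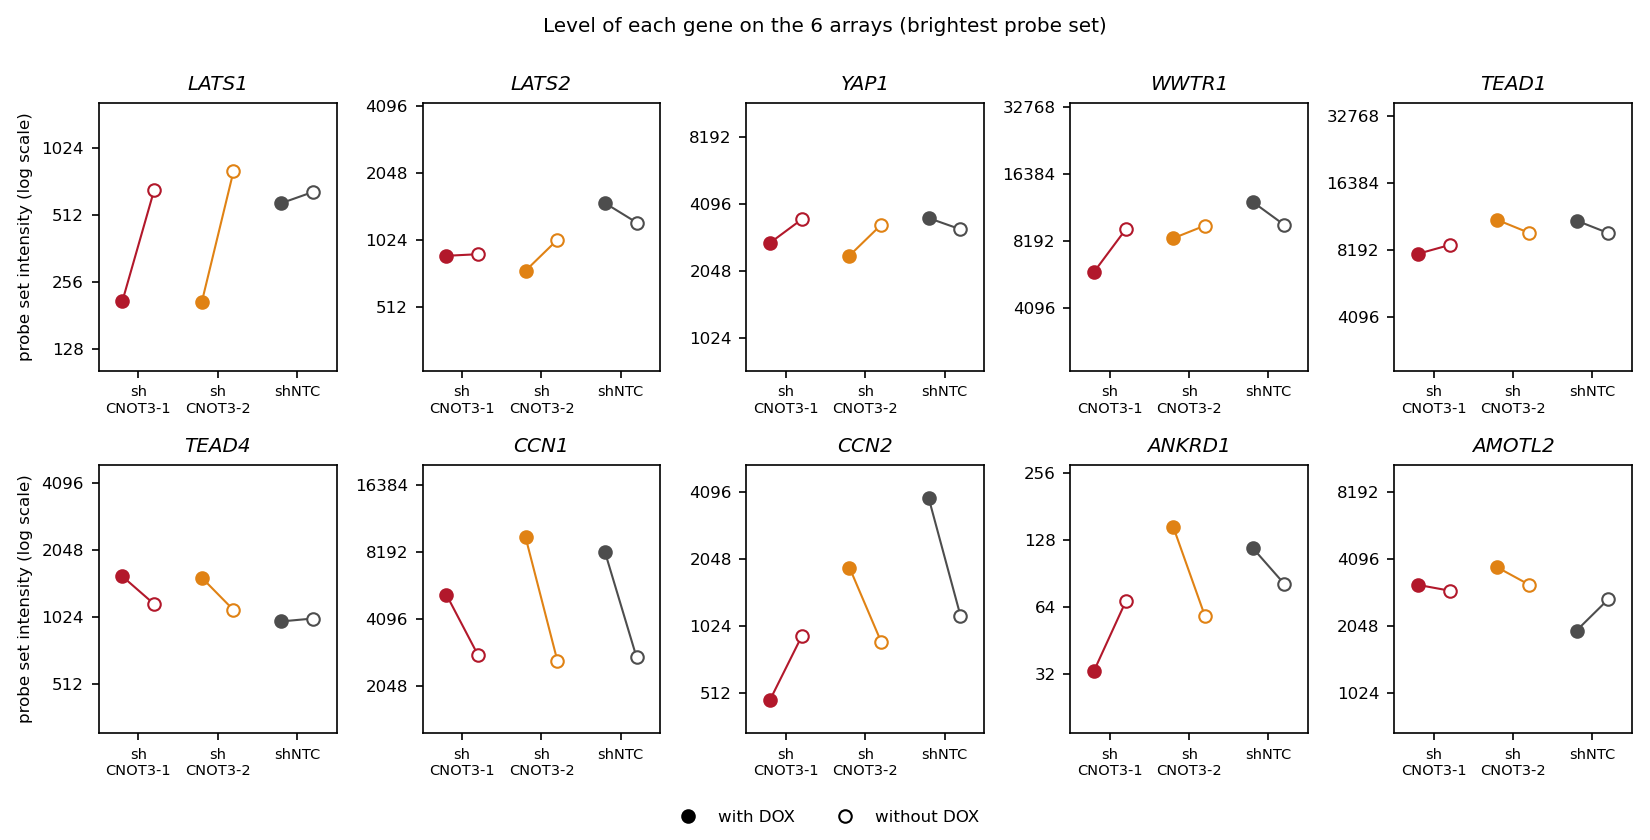
Probe set intensity (log scale, a separate range for each gene spanning the same number of doublings) of the brightest probe set of each of the 10 genes, with filled points for cultures with DOX and open points for the same line without DOX. LATS1 stood at 211 and 208 with DOX in the shCNOT3 lines, below all 4 other arrays, while CCN1 was higher with DOX in all 3 lines and CCN2 was lower in shCNOT3-1 and higher in the others.

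The coactivators were lower on their brightest probe sets. YAP1 read 2737 with and 3489 without DOX in shCNOT3-1, 2396 and 3295 in shCNOT3-2, and 3529 and 3144 in shNTC on probe set 224894_at. Both knockdown arrays lay below the other 4, and the hairpin mean was -0.40 ± 0.08 (SD, n = 2) against 0.17 in shNTC. Other YAP1 probe sets did not repeat this. Probe set 224895_at gave 0.09 and -0.22 by hairpin, and 213342_at gave 0.06 and 0.50, against 0.29 and 0.20 in shNTC.

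WWTR1 read 5954 with and 9249 without DOX in shCNOT3-1, 8432 and 9613 in shCNOT3-2, and 12284 and 9672 in shNTC on probe set 202133_at. The untreated lines agreed closely, at 1.05-fold between the highest and the lowest, and the knockdown arrays were again the lowest and shNTC with DOX the highest. The second probe set, 202132_at, also placed the knockdown arrays lowest and shNTC with DOX highest, though with shNTC the lowest of the untreated lines, at 1470 and 3137 in shCNOT3-1, 1925 and 3350 in shCNOT3-2, and 4002 and 2238 in shNTC. Its hairpin mean was -0.95 ± 0.21 (SD, n = 2), against 0.84 in shNTC. The third, 202134_s_at, differed, with -0.20 in shCNOT3-1 but 1.23 in shCNOT3-2 and 0.35 in shNTC. All 3 probe sets read higher with DOX in the control line, and lower with DOX in all but 1 of the 6 readings of the hairpin lines.

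The TEAD factors, through which YAP and TAZ reach DNA, did not share 1 pattern. TEAD4 was higher with DOX in both shCNOT3 lines on each of its probe sets. On 41037_at it read 1557 with and 1170 without DOX in shCNOT3-1, 1538 and 1102 in shCNOT3-2, and 978 and 1007 in shNTC. On 204281_at it read 1216 and 886, 1264 and 903, and 990 and 1030 in the same lines. The knockdown arrays were the highest of the 6 on both, and the 4 hairpin values lay between 0.41 and 0.49 on the log2 scale, with -0.04 and -0.06 in shNTC. Untreated lines differed by 1.16-fold on either probe set, less than the 1.33- to 1.40-fold increases of the hairpins. TEAD1 had 7877 with and 8631 without DOX in shCNOT3-1, 11188 and 9792 in shCNOT3-2, and 11107 and 9765 in shNTC, so shCNOT3-2 and the control line changed alike and shCNOT3-1 the other way. Its other probe sets gave 0.97 and 0.77 in shCNOT3-2, against -0.10 and 0.09 in shCNOT3-1 and -0.03 and 0.25 in shNTC.

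**Figure D2:**
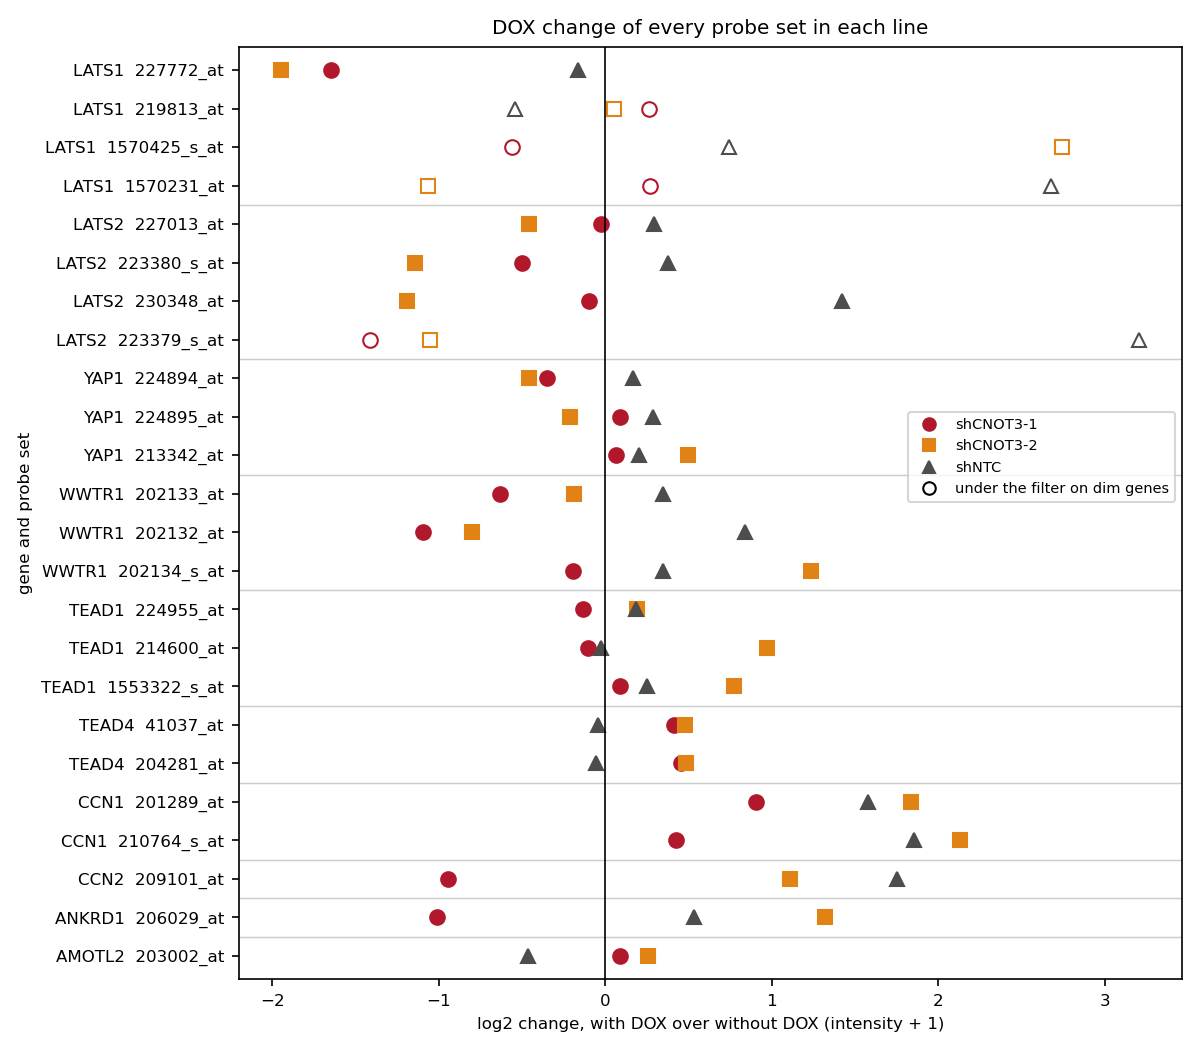
Log2 change with DOX over without DOX (x axis) of each of the 24 probe sets (y axis, grouped by gene), with circles for shCNOT3-1, squares for shCNOT3-2 and triangles for shNTC, and open symbols for the 4 probe sets under the filter. TEAD4 shows 4 hairpin values between 0.41 and 0.49, and the LATS2 probe sets all have the hairpins left of 0 and shNTC right of it.

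The targets were read against their promoters, since TEAD factors bind the sequence GGAATG. RefSeq promoter windows (GRCh38.p14, 250 bases before to 50 after a start site) were matched for 7 of the 10 genes, with 10 windows in all. CCN1, TEAD1 and TEAD4 were not matched. GGAATG, searched on both strands, was in 5 of the 10 windows and in 14.0% of all 35116 windows. The 5 were windows of the targets CCN2, ANKRD1 and AMOTL2, and of YAP1 and LATS2, which are not in the target group. Some of the genes were chosen as known YAP targets, so this share is a description. TGANTCA, a loose form of the AP-1 motif that allows any central base, was in 2 of the 10 (ANKRD1 and LATS1) and in 7.71% of all. The CArG box of serum response factor was in 0 of the 10 and in 1.29% of all. CCN2 held 3 GGAATG matches, at 169 to 164, 104 to 99 and 95 to 90 bases before the start site. ANKRD1 held 2, at 220 to 215 and 128 to 123 bases before it. It also held 1 TGANTCA match, which reads TGATTCA, at 195 to 189 bases before the start site. AMOTL2 held 1 GGAATG match on the opposite strand, at 69 to 64 bases before the start of its second window. A match is a description of these letters and not a shown binding site. The 250 bases before the start are printed for these target genes because they carry the matches, which are in capitals, and each is on the minus strand, at chr6:131951373-131951622 for CCN2, chr10:90921088-90921337 for ANKRD1 and chr3:134374448-134374697 for AMOTL2.
CCN2: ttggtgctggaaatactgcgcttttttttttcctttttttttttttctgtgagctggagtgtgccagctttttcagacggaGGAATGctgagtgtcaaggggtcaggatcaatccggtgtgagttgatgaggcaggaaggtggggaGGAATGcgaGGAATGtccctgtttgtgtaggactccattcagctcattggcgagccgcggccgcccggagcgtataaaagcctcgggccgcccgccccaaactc
ANKRD1: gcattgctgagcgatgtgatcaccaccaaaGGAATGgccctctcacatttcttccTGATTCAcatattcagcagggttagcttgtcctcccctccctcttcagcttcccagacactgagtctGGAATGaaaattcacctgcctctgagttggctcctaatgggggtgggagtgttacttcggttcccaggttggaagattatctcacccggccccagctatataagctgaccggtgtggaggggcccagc
AMOTL2: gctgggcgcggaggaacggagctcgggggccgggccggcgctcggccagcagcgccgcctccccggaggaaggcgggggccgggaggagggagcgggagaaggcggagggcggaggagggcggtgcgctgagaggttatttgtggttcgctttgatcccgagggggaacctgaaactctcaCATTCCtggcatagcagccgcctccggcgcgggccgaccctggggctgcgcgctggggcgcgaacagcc

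**Figure D3:**
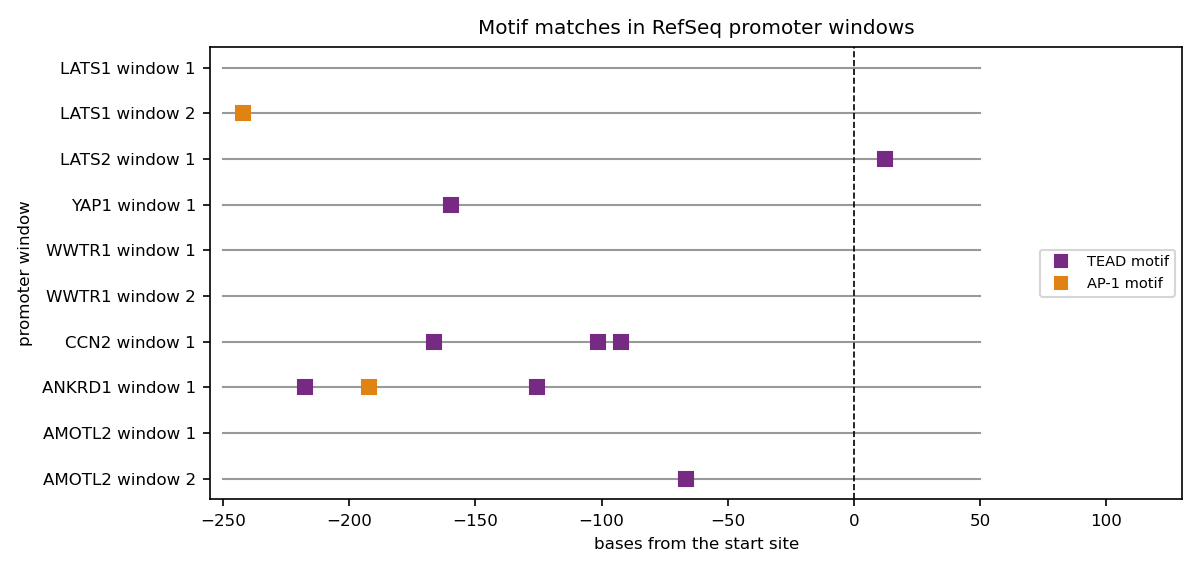
Position of motif matches (squares, in bases from the start site at 0) in the 10 RefSeq promoter windows of 7 genes, each drawn as a line from 250 bases before to 50 bases after the start. CCN2 shows 3 TEAD motif matches, ANKRD1 shows 2 with a TGANTCA match (labelled AP-1) between them, and neither WWTR1 window has a match of either kind.

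CCN1 and CCN2, secreted matrix-associated proteins that are widely used readouts of YAP activity, both read more than 2-fold higher with DOX in the control line, where CNOT3 was not targeted. CCN1 read 5281 with and 2823 without DOX in shCNOT3-1, 9536 and 2670 in shCNOT3-2, and 8222 and 2758 in shNTC on probe set 201289_at. The untreated lines were within 1.06-fold of each other, and all 3 arrays with DOX were higher than all 3 without it. Log2 changes were 0.90 and 1.84 by hairpin (mean 1.37 ± 0.66, SD, n = 2) and 1.58 in shNTC, so the control value lay between those of the hairpins. A second CCN1 probe set gave the same order, at 0.42, 2.13 and 1.85.

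CCN2 separated the hairpins. It read 478 with and 923 without DOX in shCNOT3-1, 1870 and 867 in shCNOT3-2, and 3826 and 1136 in shNTC, on its single probe set 209101_at. The array of shCNOT3-1 with DOX was the lowest of the 6, and those of shCNOT3-2 and shNTC with DOX were the highest. Log2 changes were -0.95 and 1.11 by hairpin and 1.75 in shNTC, so the hairpin mean of 0.08 ± 1.45 (SD, n = 2) describes neither line. ANKRD1, an ankyrin repeat protein that acts as a transcriptional cofactor, had the same signs at a much dimmer level, with 33.0 and 67.6 in shCNOT3-1, 146 and 57.8 in shCNOT3-2, and 117 and 80.9 in shNTC. Several of these lie near or below the filter level of 61.4, and the untreated lines differed by 1.40-fold.

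AMOTL2, an angiomotin family protein that binds YAP, read 3124 with and 2942 without DOX in shCNOT3-1, 3746 and 3133 in shCNOT3-2, and 1947 and 2690 in shNTC. The lowest array was shNTC with DOX, and the hairpin mean of 0.17 ± 0.12 (SD, n = 2) compared with -0.47 in the control line. Of the 4 targets, CCN1 and AMOTL2 thus read higher in both hairpins, and CCN2 and ANKRD1 had opposite hairpins.

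Counted over the genes, each by its brightest probe set, 4 of 10 were lower with DOX in both shCNOT3 lines (LATS1, LATS2, YAP1 and WWTR1), 3 were higher in both (TEAD4, CCN1 and AMOTL2) and 3 had opposite hairpins (TEAD1, CCN2 and ANKRD1). Over all 12630 genes tested the shares were 26.9% lower in both, 33.2% higher in both and 39.9% opposite. After median centring LATS2 joined the opposite group. The levels and changes of these genes were known when they were chosen, so the counts are descriptions and no test is given for any of the 10. The knockdown arrays lay below the other 4 for the same 4 lower genes, where the share over all genes was 12.8%. Among the 4 lower genes, 3 were higher with DOX in shNTC, against 50.3% of all genes lower in both hairpins. Of the 3 higher genes, 2 were lower in shNTC, against 52.7% of all genes higher in both. These combinations made up 13.5% and 17.5% of all genes tested. A decrease of at least 2-fold in both hairpins was seen for 1 gene, LATS1, against 0.483% of all genes.

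Changes of 2-fold or more in either direction were also counted in each line by itself. There were 2 among the 10 genes in shCNOT3-1 (LATS1 and ANKRD1), against 6.86% of all genes. In shCNOT3-2 there were 4 (LATS1, CCN1, CCN2 and ANKRD1), against 6.46%. In shNTC there were 2 (CCN1 and CCN2), against 4.01%. Over the 20 probe sets above the filter, 7 were lower in both hairpins, 7 higher in both and 6 opposite, and over all 23192 such probe sets the shares were 29.3%, 30.2% and 40.5%.

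**Figure D4:**
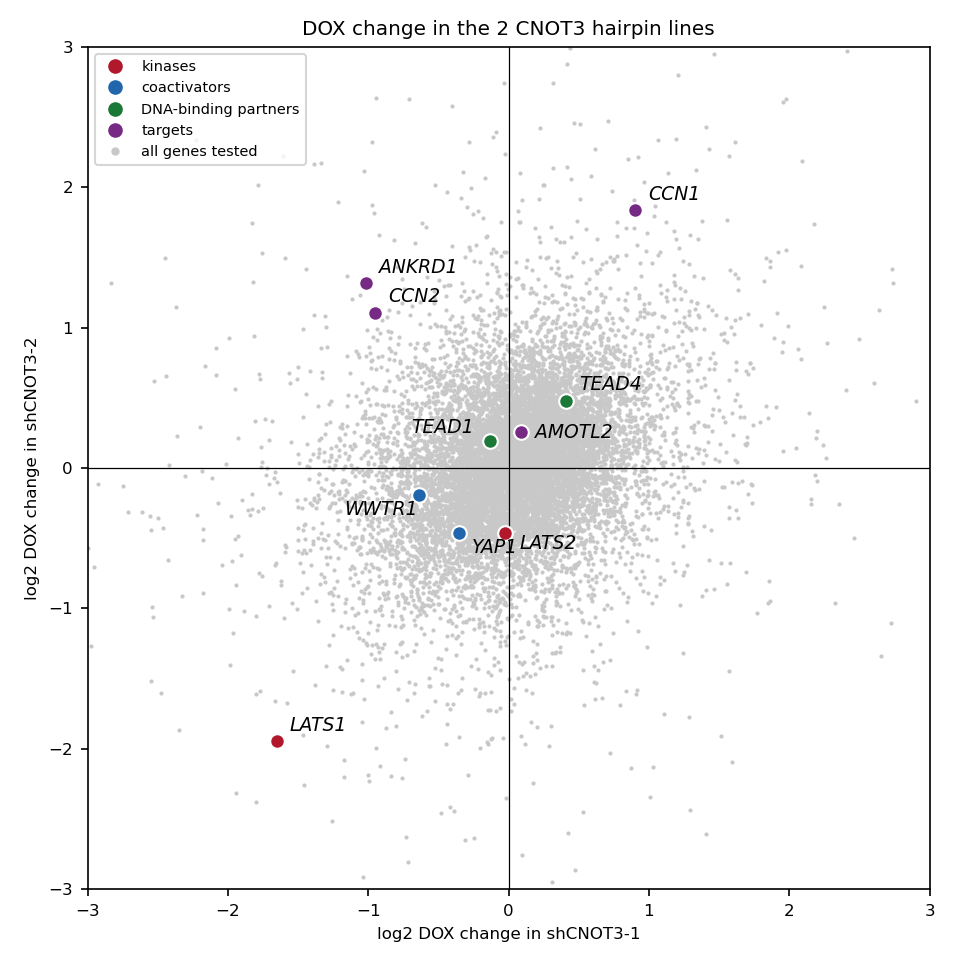
Log2 DOX change in shCNOT3-1 (x axis) against that in shCNOT3-2 (y axis) for the 10 genes, coloured by role, over the genes tested in grey (25 genes lie outside the axes). LATS1 lies far to the lower left at -1.65 and -1.95, CCN1 to the upper right, and ANKRD1 and CCN2 in the upper left, where the hairpins are opposite.

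The profiles were also compared by the root mean square difference of log2 intensities over the 6 arrays, each gene centred on its own mean. Among the 10 genes the nearest pairs were AMOTL2 and TEAD4 (0.19), TEAD1 and WWTR1 (0.22) and WWTR1 and YAP1 (0.24). The difference is also small between genes that vary little, so these pairs need not share a pattern. TEAD1 had opposite hairpins, for example, and WWTR1 was lower in both. Over all tested genes, those nearest to LATS1 were ZBTB41 (0.11), DEFB1 (0.16), SPOPL (0.19), ST8SIA4 (0.21) and REST (0.22), where LATS1 itself varied by 0.80 around its mean. Each of these 5 had hairpin changes between -1.38 and -1.90 and shNTC changes between -0.25 and 0.19. Nearest to CCN1 were MDGA1 (0.20), GBP1 (0.22), OR13C4 (0.25), TRPM6 (0.27) and GLIPR1 (0.30), all of them higher with DOX in every line. MDGA1 and GBP1 were read from probe sets of the _x_at kind, which can bind several transcripts.

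The other genes of the pathway were taken from 4 lists, of which 56 of 69 genes could be tested. A further 8 were too dim, and 5 had no probe set of their own and were not analysed here. In limma, at an adjusted p under 0.05, 28 of all genes tested (0.222%) were called for knockdown. The fit behind these calls had no DOX term. Its estimates, here and below, are mean DOX changes of the shCNOT3 lines from which the shNTC change was not subtracted. They therefore do not separate knockdown from DOX itself. Of the 56, 1 was called higher and 0 lower, against 0.103% and 0.119% of all genes tested. At an unadjusted p under 0.05, 13 were higher and 7 lower, or 23.2% and 12.5% of the 56, against 7.45% and 7.08% of all genes. The lists were chosen with earlier results of these data known, so these shares are descriptions and no enrichment was tested. None of the 56 passed for a change beyond that of shNTC, nor did any gene of the whole table in limma, where 1061 genes (8.40%) had an unadjusted p under 0.05.

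Upstream kinases, adaptors and membrane regulators showed no call among 21 tested. In both hairpins 8 were higher and 8 lower, and medians were -0.23 and 0.09 by hairpin and 0.21 in shNTC, beside 0.05, 0.02 and -0.01 over all genes. TAOK1, a kinase that activates the upstream MST kinases, had -0.69 ± 0.18 (SE, adjusted p = 0.139 in limma), from 1964 with and 3433 without DOX in shCNOT3-1, 2414 and 3616 in shCNOT3-2, and 3547 and 3070 in shNTC. Its other probe sets above the filter gave -0.63, -0.39 and -1.20. WWC3, of the KIBRA family of scaffolds, had -0.55 ± 0.23 (adjusted p = 0.324), with 0.58 in shNTC, and -0.68 from a second probe set. MAP4K4, which can phosphorylate LATS kinases, had 0.64 ± 0.21 (adjusted p = 0.216), but its other probe sets above the filter gave 0.003, 0.12 and -0.31. TAOK3 had 0.59 ± 0.23 (adjusted p = 0.283), with 0.47 in shNTC, and its second probe set gave 0.90 and -0.01 by hairpin.

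Partners and inhibitors of YAP, TAZ and TEAD factors likewise had 0 calls among 10 tested, with 5 higher and 2 lower in both hairpins and medians of 0.15, 0.04 and, in shNTC, -0.05. AMOTL1, an angiomotin that retains YAP in the cytoplasm, had 0.53 ± 0.19 (SE, adjusted p = 0.245 in limma). Its other probe sets gave hairpin means of 0.50 to 1.21, though 1 of them was -0.19 in shCNOT3-1. LIMD1, a LIM protein that binds LATS kinases, had -2.22 in shCNOT3-1 and -0.34 in shCNOT3-2 (-1.28 ± 0.36, adjusted p = 0.168), with -0.67 and 0.03 from other probe sets above the filter. In shNTC the first of these LIMD1 probe sets gave -0.32. It and the one that gave 0.03 are of the _x_at kind. VGLL3, a TEAD cofactor, had 0.33 ± 0.20 (adjusted p = 0.489), with opposite hairpins of 1.12 and -0.52 on its second probe set, and WTIP, a relative of LIMD1, had 0.35 ± 0.25 (adjusted p = 0.557).

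Other YAP and TAZ targets had 0 calls among 15 tested, with 6 higher and 1 lower at an unadjusted p under 0.05. In both hairpins 7 were higher and 3 lower, and medians were 0.13 and 0.41 by hairpin and 0.27 in shNTC. F3, tissue factor, which starts blood coagulation, read 298 with and 102 without DOX in shCNOT3-1, 314 and 160 in shCNOT3-2, and 98.5 and 167 in shNTC. The knockdown arrays were the highest of the 6 (1.25 ± 0.35, SE, adjusted p = 0.168 in limma). FOXF2, a forkhead transcription factor, had 0.86 ± 0.20 (adjusted p = 0.114), and the receptor tyrosine kinase AXL 0.78 ± 0.23 (adjusted p = 0.172), where shNTC gave 0.59 and, on a second AXL probe set, -1.72. IGFBP3, a carrier of insulin-like growth factors, had -0.62 ± 0.13 (adjusted p = 0.0880), with -0.63 and -0.62 by hairpin, and -0.59 from its second probe set. It stood at 8176 and 9068 on the knockdown arrays and between 12621 and 17325 on the other 4.

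CCN1, CCN2 and ANKRD1 also respond to serum response factor, so SRF, its coactivators and cytoskeletal targets were counted. Of 10 tested, 1 was called, ACTA2, smooth muscle actin, which rose by 1.50 ± 0.20 (SE, adjusted p = 0.0230 in limma). It read 2276 with and 744 without DOX in shCNOT3-1, 1545 and 592 in shCNOT3-2, and 784 and 742 in shNTC. Medians of the list were -0.04 and 0.08 by hairpin and 0.27 in shNTC, and 3 were higher and 3 lower in both hairpins. VCL, the adhesion protein vinculin, had 0.56 ± 0.17 (adjusted p = 0.202). Its second probe set had opposite hairpins, at -0.17 and 0.43, and 1.88 in shNTC. THBS1, thrombospondin, had -0.69 ± 0.21 (adjusted p = 0.198), with -0.07 to -0.41 from other probe sets above the filter. TAGLN, an actin-binding protein of smooth muscle, had -0.48 ± 0.66 (adjusted p = 0.787), with -2.38 in shNTC and opposite hairpins on its other probe sets. The other ACTA2 probe sets were under the filter and had opposite hairpins. The ACTA2 call ended with no filter, with no intensity trend, without the shCNOT3-1 line and with the mean of its probe sets.

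**Figure D5:**
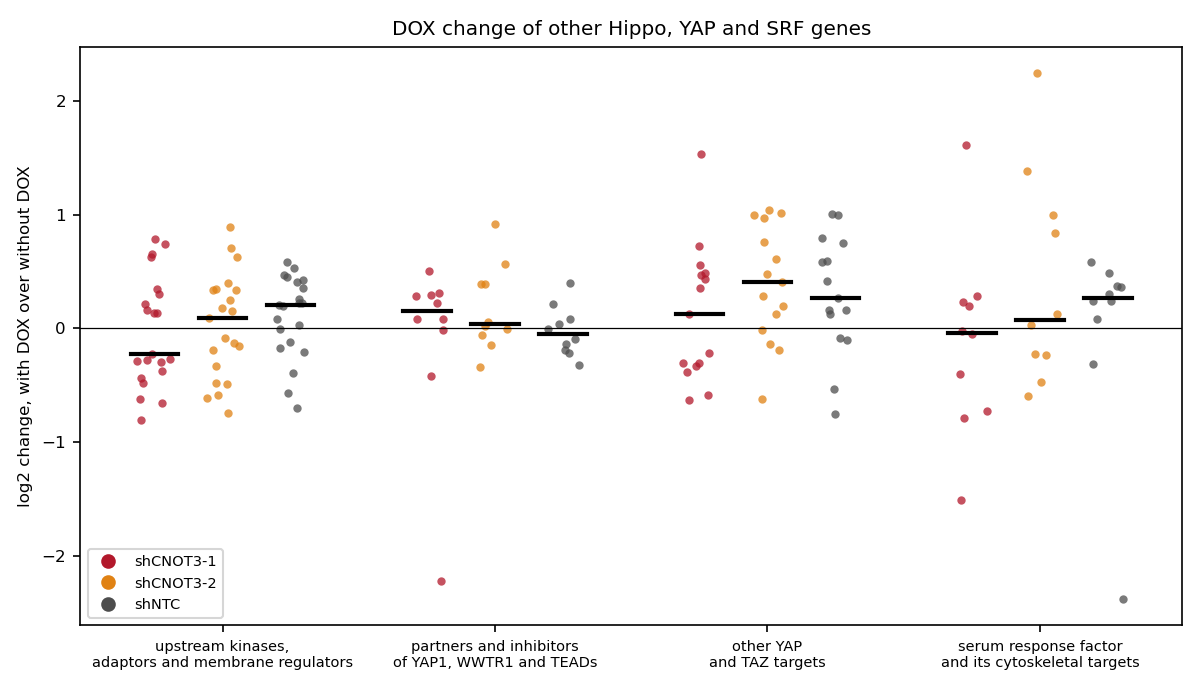
Log2 DOX change (y axis) of the 56 tested genes of 4 lists (x axis), 1 point per gene and line, with shCNOT3-1, shCNOT3-2 and shNTC side by side and a black bar at each median. Medians lie between -0.23 and 0.41, and the spread of single genes within a list is wider than the distance between lines.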

How the data were processed

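RNA of 6 A549 cultures was read on 1 array each. Per the submitters' processing notes the deposited intensity values were made with MAS5, and its settings were not stated there or in the labels. The deposited intensity values are linear, with a mean after trimming of 500.1 on every array and a floor of 1. Precision is limited by the number of arrays, which have no depth.

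From these, log2 of intensity plus 1 was computed. A gene was represented by its brightest probe set assigned to it alone. Current symbols were looked up through the Entrez identifier, which was found for 41043 of the 41097 probe sets assigned to 1 gene. Of 19775 genes, 7145 with a mean log2 under 5.96, the median over probe sets (intensity 61.4), were left out and 12630 were fitted. The fits were made in R 4.3.3 by limma 3.58.1, with an intensity-dependent prior, 2-sided, with Benjamini-Hochberg adjustment at 0.05. The stable line was a block, since the labels pair each treated culture with the untreated one of its line, and 1 term stood for knockdown in the 2 shCNOT3 arrays with DOX. A second model added a DOX term. The 2 hairpins were the only replicates of knockdown, the labels mention no repeat cultures, and p-values reflect only how far these arrays differ. The procedure was tested on simulated data, but no outcome of that test is given here and no support is drawn from it.

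The members, lists and tests were chosen with earlier results of these data known. Named genes were all members, CNOT3, every called list gene, up to 4 genes per list with the largest smaller hairpin change, and the 5 nearest profiles to LATS1 and CCN1. Promoter sequences are RefSeq's, GRCh38.p14. Alternatives covered scaling, the added constant, the filter, the probe set, the block, the variance prior and each line left out. Figures used Python 3.11.15 and matplotlib 3.10.9.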

Additional observations from a re-analysis of the deposited data

Results flagged for a closer look

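In 5 of the 10 genes both hairpins changed in the opposite sense to the shNTC line with DOX. The hairpin mean minus the shNTC change, on the log2 scale, was -0.53 for LATS2, -0.57 for YAP1, -0.76 for WWTR1, 0.49 for TEAD4 and 0.64 for AMOTL2. For LATS2 this holds by -0.02 in shCNOT3-1 and ends after median centring. Over all genes tested, 13.5% were lower in both hairpins and higher in shNTC, and 17.5% were the reverse. Each difference sets 2 hairpin lines against 1 control line and was not tested for these genes.

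Each of the 4 lists had 4 named genes, and among all of these the same held for 7. These genes were named because both hairpins changed in the same direction. Over all genes with both hairpins lower, 50.3% were higher in shNTC, and with both higher, 52.7% were lower in shNTC. The difference from shNTC was -1.13 for WWC3, -0.90 for TAOK1, 0.63 for AMOTL1, 0.53 for VGLL3, 2.00 for F3, -0.74 for IGFBP3 and -0.93 for THBS1. None of these 7 passed in limma for the change beyond shNTC. Other probe sets above the filter did not all repeat the pattern. For THBS1 shNTC gave -0.66 and -0.77 on a further pair, below hairpin means of -0.20 and -0.07. IGFBP3 was -0.19 in shNTC on its second probe set, the same sign as the hairpins, and VGLL3 and 1 probe set of AMOTL1 had opposite hairpins. No group had the 4 samples that a search for outlying samples needs.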

How the results depend on the processing

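Over all genes, 28 were called for knockdown. The count was 59 after median centring, 64 with a constant of 64, 3 with no filter, 51 with a filter at the 75th percentile, 6 with the mean over probe sets, 191 with no replicate block for the line and 0 with no intensity trend in the variance. With a line left out it ran from 39 (without shCNOT3-1) to 62 (without shCNOT3-2), and without shNTC it was 57. Without a shCNOT3 line, 1 hairpin stands for knockdown and only shNTC gives the residual. The mean of the probe sets above the filter, an alternative chosen after seeing the data, gave 9. The count beyond shNTC was 0, and 10 after median centring, and leaving out any line left that fit no residual degree of freedom or no control. Of the list genes 1 was called. It was 0 with no filter, with the mean of probe sets and with no intensity trend, 4 with no replicate block (ACTA2, FOXF2, IGFBP3 and MYOF), and 0 to 2 with a line left out. No hairpin mean of the 10 genes changed sign under the 6 settings tried on it, but that of LATS1 went to -0.24 with the mean of its 4 probe sets, that of LATS2 to -0.74, that of YAP1 to -0.06 and that of TEAD1 to 0.30 by the same mean, and LATS1 to -1.54 with a constant of 64. The cause of the other differences was not tested.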
